A study of Mus musculus with 5 samples.

Results

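B16F10 mouse melanoma cells that were made to express Myod1 were compared with B16F10 cells that carried the empty expression vector. The genes compared were those at 1 FPKM or more in either of these libraries (FPKM stands for sequenced fragments divided by gene length and by a total for the library). This gave 11963 of the 54699 genes in the table. Both cultures were infected with lentivirus and collected on day 8, and each is represented by 1 library of total RNA. A culture that carried the empty vector for knockdown, collected on day 7, served as the second control and gave the background. The series also holds 1 library with forced Pparg expression (day 8) and 1 with Setdb1 knockdown (day 7), and their values are given here only beside those of Myod1. All 5 groups are the same cell line, the labels call the control cells wild type, and the promoter of the vector is not given in the sources used here. Below, the empty expression vector library is called the day 8 control and the empty knockdown vector library the day 7 control.

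Myod1 encodes MyoD, a basic helix-loop-helix transcription factor of skeletal muscle that binds short DNA sites called E-boxes as a dimer with E proteins such as those encoded by Tcf3 and Tcf12. In myoblasts it switches on myogenin (Myog) and MEF2 factors, which together turn on the genes of the contractile apparatus while the cells leave the cell cycle and fuse into multinucleated myotubes. Forced MyoD expression is a classic way to turn other cell types towards muscle. B16F10 cells start from another lineage, that of the pigment cell, which is governed by the transcription factor MITF.

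The Myod1 library held 18300670 reads assigned to genes, the day 8 control 16741147 and the day 7 control 16214802. With 1 library per group there is no replicate check, so no difference below has a test. The 95% Wilson intervals in brackets treat the reads of a gene as a share of all reads in that library and cover counting error only. Differences are given as log2((FPKM + 1) / (FPKM + 1)), so that ratios of weakly expressed genes are pulled towards 0. A gene is called higher or lower from 1 or -1 outwards, a 2-fold difference. In a bulk library fewer cells with a transcript and less transcript per cell cannot be told apart. The deposited values are scaled between libraries, and dividing each column by its own sum would shift the median of all genes compared from 0.04 to -0.29.

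Myod1 itself reached 260 FPKM (254 to 266) in its own library and had 0 reads in each of the other 4. A count of 0 does not show absence, and a floor of 3 reads was set for low counts. Values per gene cannot separate transcripts of the vector from those of the cell's own locus. Myog, the myogenin gene, had an FPKM of 948 (936 to 961) with Myod1 and 0 reads in the other 4 libraries. Acta1, the skeletal muscle alpha-actin gene, had 14993 with Myod1, 0.0797 in the day 8 control, 0 in the day 7 control, 0.849 with Pparg and 0.704 with Setdb1 knockdown. Mitf, the master regulator of melanocytes, went the other way, with 8.03 (7.48 to 8.61) with Myod1, 28.7 (27.7 to 29.8) in the day 8 control, 41.6 (40.4 to 42.8) in the day 7 control, 16.7 with Pparg and 13.7 with Setdb1 knockdown. The Myod1 library was thus the only one of the 5 with more than 1 FPKM of the 3 muscle markers, and it had the lowest Mitf value. The 2 controls differed in Mitf by more than their counting intervals.

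**Figure D1:**
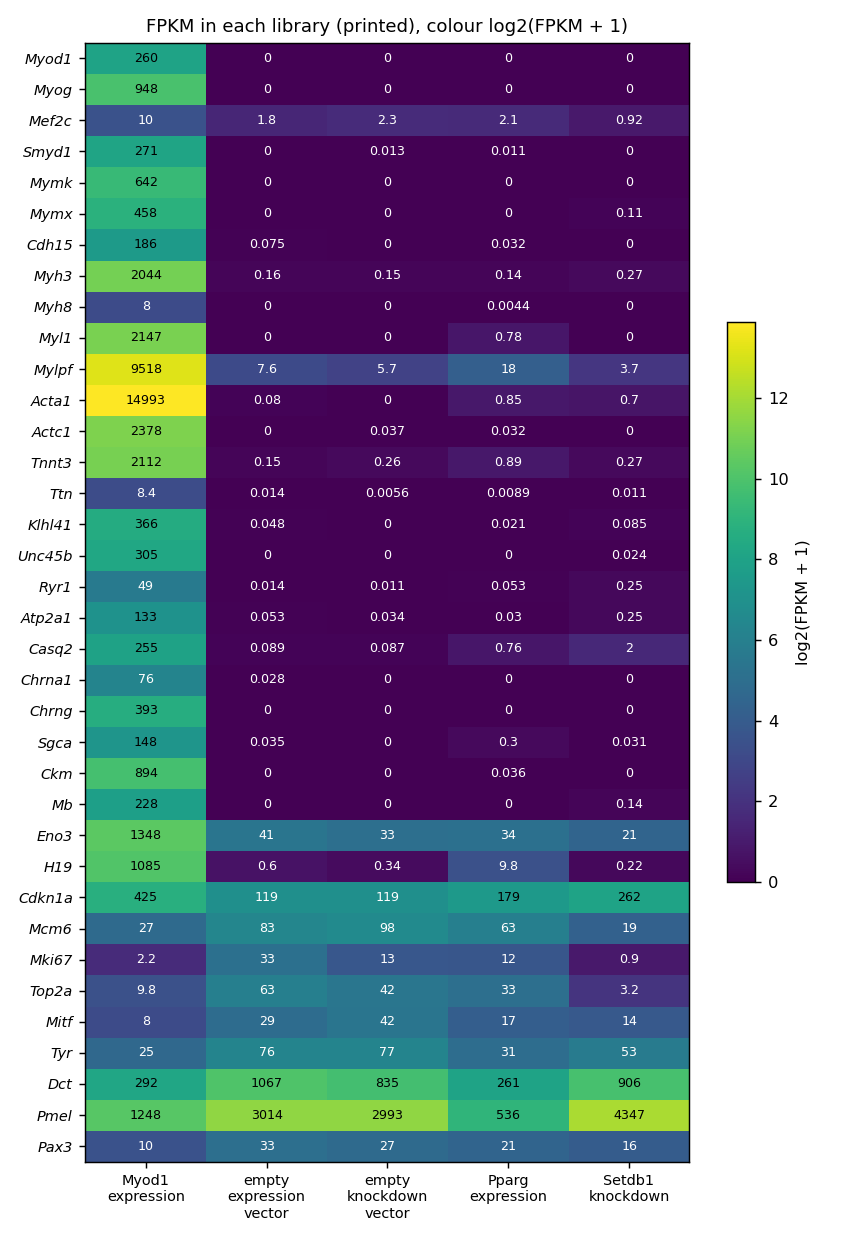
FPKM of 36 genes (rows) in the 5 libraries (columns), printed in each cell and coloured by log2(FPKM + 1). The muscle genes from Myod1 down to Mb are high in the Myod1 column and at or near 0 in the others apart from low levels of Mef2c and Mylpf, and the genes of cell division and pigment at the bottom are lower with Myod1 than in both controls.

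Against the day 8 control, 1798 genes were at least 2-fold higher with Myod1 (15% of the genes compared) and 970 were at least 2-fold lower (8.11%), together 2768 (23.1%). Over the same genes the day 7 control differed from the day 8 control by 2-fold in 81 genes upwards (0.677%) and 185 downwards (1.55%), together 266 (2.22%). Among the 11142 genes at 1 FPKM or more in either control, the day 7 control was higher in 158 (1.42%) and lower in 185 (1.66%), together 343 (3.08%). Against the day 7 control, the Myod1 library was higher in 1941 genes (16.2%) and lower in 880 (7.36%), together 2821 (23.6%). Against both controls, 1525 genes were higher (12.7%) and 567 lower (4.74%), together 2092 (17.5%). Large differences were nearly all upward. At 4-fold the counts were 559 higher and 49 lower, at 8-fold 281 and 1, and at 16-fold 150 and 0, and 7 genes passed 1024-fold on this scale. Between the controls, 8 genes were 4-fold higher and 18 lower. Scaling moved the balance of these calls: of the genes called, 65.0% were higher as deposited, 51.9% (1451 higher, 1344 lower) after scaling to the 75th percentile and 39.3% (1215 higher, 1878 lower) after scaling to the column sum.

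Many of the higher genes were ones that the control cells hardly transcribed. Of the 1210 genes compared that were under 1 FPKM in the day 8 control, 781 were at least 2-fold higher (64.5%), which the rule favours because such genes entered the comparison through the Myod1 library. Of 5940 genes at 1 to 10 FPKM there, 564 were higher and 464 lower, and of 4317 at 10 to 100 FPKM, 412 and 428. Of the 496 genes over 100 FPKM in the day 8 control, 41 were higher and 78 lower. In all, 471 genes reached 1 FPKM with Myod1 while each control had at most 3 reads (3.94% of the genes compared), and 271 of them had 0 reads in both controls. The rule sets a limit on reads, not a ratio: 40 of the 471 had at most 3 reads with Myod1 as well, 38 were less than 2-fold above the day 8 control and 3 were not above at least 1 of the controls. The 471 comprised 221 protein-coding genes, 99 long noncoding RNA genes and 151 of other kinds. Together they took 926838 reads, 5.06% of the Myod1 library, against 233 reads in the day 8 control and 246 in the day 7 control. As a background for such appearances, 555 genes reached 1 FPKM with Myod1 at no more than 3 reads in the day 8 control, and 142 genes did so in the day 7 control. In reverse, 116 genes at 1 FPKM or more in the day 8 control had at most 3 reads with Myod1, and 43 of them also reached 1 FPKM in the day 7 control.

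**Figure D2:**
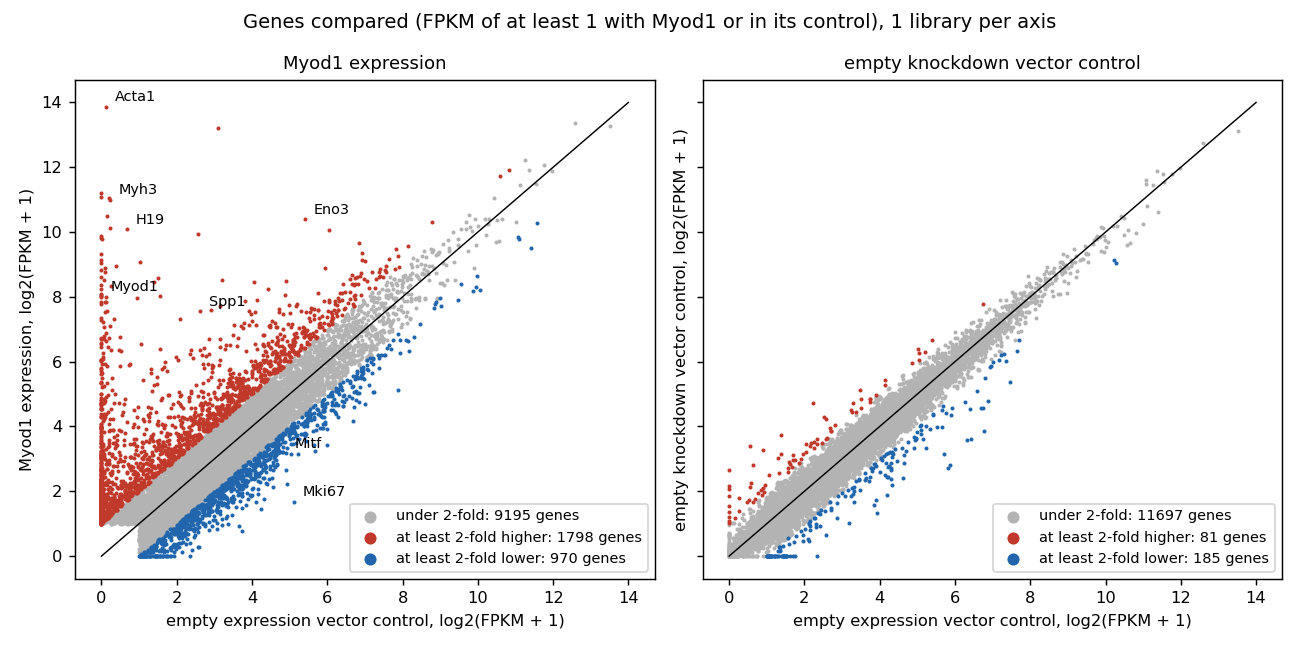
Log2(FPKM + 1) of the genes compared in the Myod1 library (left) and in the day 7 control (right), each against the day 8 control on the x axis, with 1 point per gene and the diagonal marking equal values. The left cloud is wider than the right, with 1798 genes at least 2-fold higher and 970 lower against 81 and 185, and a column of muscle genes rises at the left edge where the control is near 0.

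E-boxes have the general form CANNTG, and the forms CAGCTG and CAGGTG are those that MyoD is known to prefer. RefSeq promoters (250 bases before to 50 after each start site, build GRCm38.p6) were searched on both strands for these and, for comparison, for CACGTG, the form bound by Myc and MITF family factors, and for the MEF2 site. Of 10470 protein-coding genes with distinct symbols, 8478 had an entry (81.0%). CAGCTG was present in 35.6% of the 219 promoters of genes at least 8-fold higher against both controls, in 19% of 1100 promoters of genes 2- to 8-fold higher, in 14.4% of 9103 promoters of genes in neither class and in 14.1% of 497 promoters of lower genes. The same order held for CAGGTG, at 27.4%, 22.9%, 16.6% and 14.3%. CACGTG gave 8.68%, 9.45%, 10.6% and 9.05%, and the MEF2 site 7.76%, 2.64%, 1.44% and 1.21%. Mean GC content was 59.2%, 60.9%, 61.4% and 60.3% in the same order. Over all 32851 promoters of the table the shares were 16.3% for CAGCTG, 20.2% for CAGGTG, 7.15% for CACGTG and 3.19% for the MEF2 site, at a mean GC content of 53.8%. These shares are descriptions with no test, and genes with several start sites count more than once. A match is a string in the sequence and does not show binding. The upstream parts of 3 promoters follow, chosen after their values were seen because each gene was near 0 in the controls and high with Myod1, and because they show the motif once, in a cluster, and beside a MEF2 site. Capitals mark the 2 preferred E-box forms on either strand and the MEF2 site. On the printed strand a reversed CAGGTG reads CACCTG. Each run ends at the base before the start site.
Acta1, chr8:123894776-123895025, minus strand: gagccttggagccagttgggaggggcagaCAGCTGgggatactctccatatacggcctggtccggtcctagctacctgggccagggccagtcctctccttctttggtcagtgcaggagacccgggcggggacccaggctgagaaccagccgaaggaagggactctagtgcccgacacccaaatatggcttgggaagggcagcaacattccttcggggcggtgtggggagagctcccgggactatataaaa
Chrna1, chr2:73580339-73580438, minus strand: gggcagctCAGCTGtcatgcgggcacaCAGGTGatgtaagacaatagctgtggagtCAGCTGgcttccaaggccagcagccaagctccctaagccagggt
Klhl41, chr2:69669920-69670119, plus strand: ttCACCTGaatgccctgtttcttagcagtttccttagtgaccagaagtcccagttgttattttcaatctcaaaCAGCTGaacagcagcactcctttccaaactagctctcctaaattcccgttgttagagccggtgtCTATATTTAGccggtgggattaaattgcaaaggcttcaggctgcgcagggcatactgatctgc
In Acta1 the CAGCTG begins 221 bases before the start site. Chrna1 holds CAGCTG at 92 and 44 bases and CAGGTG at 73 bases before it, all within 100 bases. In Klhl41 the CAGGTG, the CAGCTG and the MEF2 site begin 198, 127 and 63 bases before the start site. The 250 bases before the Myog start site held no CAGCTG, no CAGGTG and no string that matched the MEF2 pattern used. They do hold CAGTTG, an E-box form that was not searched. They also hold CTATATTTAT, which differs from the Klhl41 string CTATATTTAG in its last base. The search thus does not show that Myog lacks such sites.

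Of the myogenic transcription factors and cofactors other than Myod1, 15 of 21 were compared, 9 were at least 2-fold higher, 1 was lower and 5 were neither, with a median log2 ratio of 2.0 (0.04 over all genes compared). All genes compared gave 15% higher and 8.11% lower, and 12.7% and 4.74% against both controls. Of the 15, 4 entered through the Myod1 library alone, and over 17 listed genes with any reads in the pair the median was 1.59. The 9 were higher against both controls. The other members of the MyoD family did not follow Myog: Myf5 had 0 reads and Myf6, the late factor of the family, had 3 reads in the Myod1 library. Of the MEF2 genes, the partners of MyoD in muscle transcription, Mef2c had an FPKM of 10.2 with Myod1 against 1.81 and 2.31 in the day 8 and day 7 controls. Mef2a had 18.7 against 2.41 and 2.49, and Mef2d had 120 against 39.3 and 26.5. Mef2b stayed near 1 FPKM, at 1.09 against 0.698 and 0.256. Srf, which drives actin genes, had 127 against 27.5 and 25.4. Smarcd3, the BAF60c subunit through which MyoD recruits chromatin remodelling, had 38.6 against 1.77 and 1.79, and Smyd1, a muscle methyltransferase, had 271 against 0 and 0.0132. Each of these except Mef2b was at least 2-fold above both controls. Pax3, a factor of muscle progenitors that is also active in melanocytes, had 10.1 with Myod1 and 32.7 and 27.0 in the controls (log2 ratio -1.60 and -1.33), and Pax7, the satellite cell factor, had 0 reads in all 3. The E protein genes Tcf3 and Tcf12 differed from the day 8 control by -0.57 and -0.74.

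Of the genes of myoblast fusion and adhesion, 9 of the 20 compared were higher, 2 lower and 9 neither, with 8 higher and 1 lower against both controls, where all genes compared gave 15% and 8.11%, and 12.7% and 4.74% against both. Of the 20, 7 entered through the Myod1 library alone. The list had a median of 0.26 that became -0.06 after scaling to the column sum. Mymk and Mymx, the pair of membrane proteins that fuse myoblasts, had FPKM of 642 and 458 with Myod1 and 0 reads in both controls. Cdh15, the muscle cadherin, had 186 against 0.0753 and 0, Itga7, the laminin receptor of muscle, had 31.0 against 0.280 and 0.133, and Jam2 had 13.6 against 0.446 and 0.554. Tmem182 had 48.4 with Myod1 and 0 reads in both controls. The Hedgehog co-receptors Cdon and Boc, which also promote myogenesis, were at -0.26 and -0.39. Kirrel, an adhesion gene, had 12 against 41.7 and 37.8, and the neural cadherin gene Cdh2 had 7.54 against 15.1 and 15.4. Vcam1 had 0 reads with Myod1.

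All 16 thick filament genes compared, of 20 listed, were at least 2-fold higher with Myod1 against both controls (median 4.95), and 11 of them had at most 3 reads in each control. Over all genes compared, 12.7% were higher against both controls. As 15 of the 16 entered the comparison only through the Myod1 library, the count was favoured by the rule. Over the 18 listed genes with any reads in the pair the median was 3.92. The myosin heavy chains were those of the embryo. Myh3, embryonic myosin, had an FPKM of 2044 (2035 to 2053) with Myod1, 0.162 in the day 8 control, 0.148 in the day 7 control, 0.138 with Pparg and 0.268 with Setdb1 knockdown. Myh8, the perinatal form, had 7.98 (7.58 to 8.40) with Myod1 and 0 reads in both controls. Myh7, the slow form, had 2.61 and Myh6 3.52. The adult fast genes Myh1 and Myh2 had 0 reads and Myh4 had 1 read, so within the Myod1 library the level per length fell from Myh3 to Myh8 and then to the slow and adult fast genes. Of the light chains, Mylpf had 9518 against 7.61 and 5.74, Myl1 2147 against 0 reads in both controls, and Myl4, the embryonic and atrial light chain, 1119 against 0.172 and 0.219. Myl2, the slow ventricular light chain, stayed at 0.424 FPKM. The M-band genes Myom1, Myom2 and Myom3 had 44.6, 103 and 64.0 with Myod1 and less than 0.5 in each control. How the authors counted reads shared by close relatives such as the myosin and actin genes is not given in the sources used here.

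Of 16 thin filament genes compared, 15 were higher against both controls and 1 lower, with a median of 8.62, the largest of the lists. Over all genes compared these shares were 12.7% and 4.74%. Through the Myod1 library alone entered 13 of the 16, and over 17 genes with any reads the median was 8.56. Besides Acta1, Actc1, the cardiac alpha-actin that embryonic skeletal muscle also uses, had an FPKM of 2378 with Myod1, 0 in the day 8 control and 0.0370 in the day 7 control. The fast troponin genes Tnnt3 and Tnni2 had 2112 and 526 with Myod1 and less than 0.3 in each control. Slow and cardiac forms were also high: Tnni1 had 874, Tnnt1 490, Tnnt2 478 and Tnnc1 433, each under 0.4 in both controls. The exception among the calcium sensors was Tnnc2, the fast troponin C, with 1.35 FPKM (17 reads). Tpm2 had 1433 against 0.105 and 0.103, and Tpm1 had 475 against 60.5 and 65.9. Tpm3, a tropomyosin of slow muscle and of the cytoskeleton of other cells, was the lower gene, with 51.5 against 109 and 115. Neb, which encodes the thin filament ruler nebulin, had 17.9 against 0.0461 and 0.0855.

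Of the genes of the Z-disc, titin and sarcomere assembly, 22 of the 24 compared were higher against both controls, none was lower and 2 were neither, with a median of 4.12. Over all genes compared, 12.7% were higher and 4.74% lower against both controls. Of the 24, 19 entered through the Myod1 library alone, and over all 28 listed the median was 3.39. Titin (Ttn) had an FPKM of 8.44 (8.31 to 8.57) with Myod1 against 0.0141 and 0.00563. The assembly factors were high: Klhl41 had 366 against 0.0484 and 0, Unc45b, the myosin chaperone, 305 against 0 reads in both controls, and Klhl40 106 against 0 reads in both. Desmin (Des), which was present in the controls at 6.20 and 4.75, had 102 with Myod1, and Trim63, a ubiquitin ligase of muscle wasting, had 50.3 against 20.7 and 20.5. Cryab and Bag3, chaperones already expressed in the controls, were the 2 in neither class, at 0.75 and 0.36. Myoz1, Myot, Xirp2 and Nrap did not reach 1 FPKM with Myod1.

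Excitation-contraction coupling genes were higher in 18 of 19 compared, with a median of 5.49, and all 18 were higher against both controls. Over all genes compared, 15% were higher, and 12.7% against both controls. Of the 19, 14 entered through the Myod1 library alone, and over 23 genes with any reads the median was 5.01. The voltage sensor of the T-tubule, Cacna1s, had an FPKM of 44.5 against 0.00935 and 0.00913, and the calcium release channel of the sarcoplasmic reticulum, Ryr1, had 49.1 against 0.0140 and 0.0110. Stac3, which links them, had 60.3 against 0.0722 and 0.0470. The calcium pump Atp2a1 had 133 against 0.0528 and 0.0344, while Atp2a2, the pump of most cells, had 174 against 110 and 105 and was the member in neither class. Of the calsequestrins, which store calcium, the slow and cardiac form Casq2 had 255 against 0.0895 and 0.0874, whereas fast Casq1 had 8.05. The caveolin and membrane-shaping genes of the T-tubule, Cav3 and Bin1, had 86.1 against 0 reads and 358 against 28.9 and 21.1. Trdn and Clcn1, the chloride channel of mature fibres, stayed under 1 FPKM, and Jph1 had 2 reads while Jph2 had 73.6 against 6.30 and 3.02. Transcripts of the voltage sensor and of the release channel were thus both present with Myod1, and those of some partners were near 0.

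At the neuromuscular junction, 8 of 11 genes compared were higher, 1 lower and 2 neither (median 3.24), and 6 of the 11 entered through the Myod1 library alone. All genes compared gave 15% higher and 8.11% lower. The acetylcholine receptor subunits present were those of the fetal receptor. Chrng, the fetal gamma subunit, had an FPKM of 393 (388 to 398) with Myod1 and 0 reads in the other 4 libraries, and Chrne, the adult epsilon subunit, had 0 reads in all 5. Chrna1 had 76.3 against 0.0279 and 0, Chrnd 104 against 0 reads in both, and Chrnb1 60.0 against 0.677 and 0.591. Of the clustering machinery, the adaptor Dok7 had 83.3 against 1.93 and 0.671, rapsyn (Rapsn) 143 against 32.2 and 40.9, and the kinase Musk 2.32 against 0 reads in both controls. Agrn, the ligand that motor nerves also supply, had 8.45 against 24.5 and 13.5, which was 2-fold lower against the day 8 control alone.

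The dystrophin-glycoprotein complex was less uniform, with 6 of 13 compared higher, 1 lower and 6 neither (median 0.92), and none was lower against both controls. All genes compared gave 15% higher and 8.11% lower. Of the 13, 3 entered through the Myod1 library alone. Sgca, the muscle-specific sarcoglycan, had an FPKM of 148 against 0.0353 and 0, and Capn3 had 7.14 against 0.0122 and 0. Dag1, which encodes dystroglycan in most cells, had 174 against 83.3 and 67.8. Dystrophin (Dmd) itself had 29 reads with Myod1 and 9 in each control, an FPKM of 0.0775 (0.0540 to 0.111), and its relative utrophin (Utrn) had 3.75 against 8.96 and 7.89. Dystrophin thus stayed under 1 FPKM.

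The 9 muscle lists, from transcription factors to energy metabolism and without the microRNA loci, held 187 genes besides Myod1. Of these, 154 were compared, 119 were higher, 6 lower and 29 neither, and 118 were higher and 3 lower against both controls. All genes compared gave 15% higher and 8.11% lower, and 12.7% and 4.74% against both controls. The median of the 154 was 3.35, and 0.04 for all genes compared. Only 65 of the 154 reached 1 FPKM in the day 8 control and 89 entered through the Myod1 library alone, against 1210 of the 11963, so the rule favours a higher count and median here and they support nothing by themselves. Together they took 10.8% of the reads of the Myod1 library and 0.841% of those of the day 8 control. Their summed FPKM was 55202 with Myod1, 1965 in the day 8 control, 1727 in the day 7 control, 2021 with Pparg and 1812 with Setdb1 knockdown. The Myod1 library stood apart from the other 4, which lay close together.

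**Figure D3:**
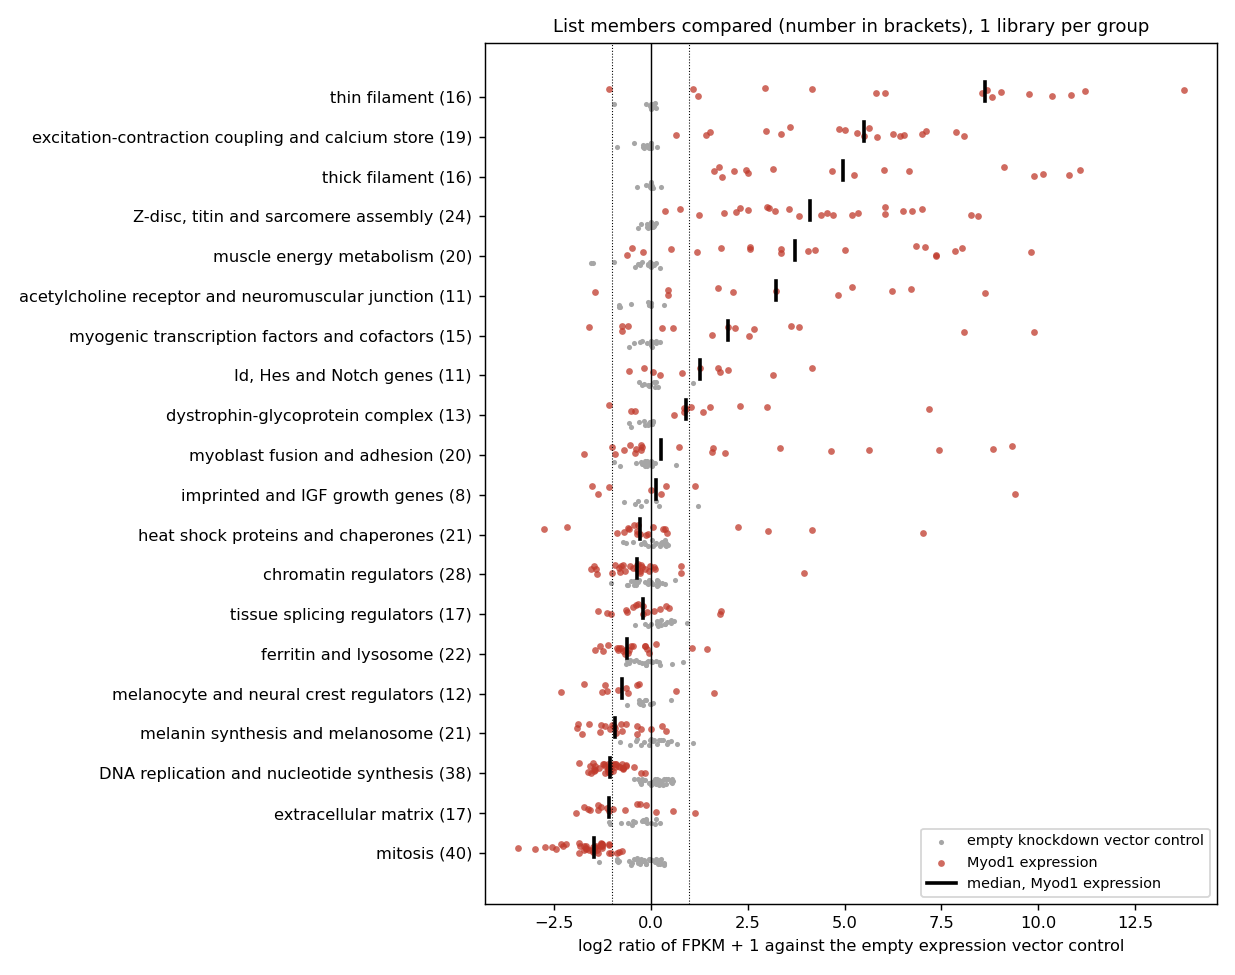
Log2 ratios against the day 8 control of the genes compared in 20 lists (rows), in red for the Myod1 library with the median as a black bar and in grey for the day 7 control, with dotted lines at 2-fold. The medians fall from 8.62 for the thin filament to -1.46 for mitosis, while the grey points lie mostly between the dotted lines.

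Energy metabolism of muscle showed 16 of 20 genes compared higher and none lower (median 3.71), and 8 of the 20 entered through the Myod1 library alone. Over all genes compared, 15% were higher and 8.11% lower. Ckm, the muscle creatine kinase, had an FPKM of 894 (885 to 902) against 0 reads in both controls, 14177-fold above a floor set at 3 reads in the day 8 control. Myoglobin (Mb) had 228 against 0 reads in both. Glycogen breakdown and synthesis were represented by Pygm, with 352 against 1.62 and 1.25, and Gys1, with 162 against 45.1 and 14.8. Glycolysis was represented by Eno3, with 1348 against 41.1 and 32.9, and Pgam2, with 983 against 4.96 and 6.05. Slc2a4, the insulin-responsive glucose transporter, had 45.5 against 1.80 and 1.65. Ppargc1a, a regulator of mitochondrial genes, was at -0.19, and Pdk4 had 0 reads. Hk2 was at -0.47 against the day 8 control and at 1.03 against the day 7 control, which differed from each other (75.5 and 26.1 FPKM).

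Many of these proteins have a form for muscle and a form for most other cells, and 12 such pairs, chosen after their values were seen, were set side by side per length. The muscle form was at least 2-fold higher in 12 of 12, and it made up over 50% of the pair's summed FPKM in 7 with Myod1 and in 0 in either control. Ckm took 88.9% of its pair with Ckb, Pygm 92.3% of its pair with Pygb, where the day 8 control had 0% and 3.43%. Myh3 took 98.1% beside nonmuscle Myh9, and Acta1 95.6% beside cytoplasmic Actb. Eno3 took 51.5% beside Eno1 (1.96% in the day 8 control), and Pgam2 74.4% beside Pgam1 (0.661%). The respiratory chain forms Cox6a2 and Cox8b stayed the smaller part, at 16% and 28.5%. The forms used by most cells remained present: Actb had an FPKM of 689 with Myod1 against 852 and 902, and Eno1 1269 against 2057 and 1205. Of the 12, 4 were at least 2-fold lower than in the day 8 control (Pgam1, Pfkl, Actn4 and Myh9), but against the day 7 control their log2 ratios were -0.66, 0.93, -0.88 and -0.41, and none passed 2-fold.

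**Figure D4:**
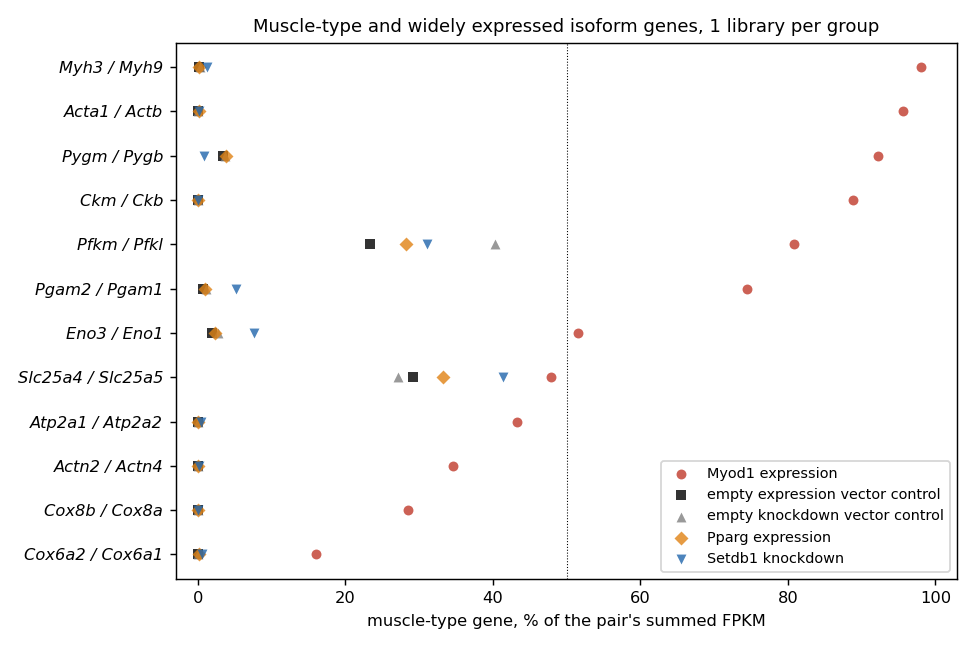
Share of the muscle form in the summed FPKM of 12 pairs of related genes (rows), as a percentage, in each of the 5 libraries (symbols), with a dotted line at 50%. The red circles of the Myod1 library lie to the right of all other symbols in each pair, from 16% for Cox6a2 to 98.1% for Myh3.

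Nuclear genes of the respiratory chain, a set put together after the data were seen, were higher in 56 of 76 compared and lower in 0, and the same 56 was the count against both controls (median 1.40, or 1.01 after scaling to the column sum). All genes compared gave 15% higher and 8.11% lower, and 12.7% and 4.74% against both controls. By complex, the numbers higher were 25 of 36 for complex I, 1 of 4 for complex II, 7 of 8 for complex III, 10 of 12 for complex IV and 13 of 16 for ATP synthase. In complex I, Ndufc1 had the highest ratio against the day 8 control, with an FPKM of 93.6 against 20.6 and 22.9. Ndufa9 had the lowest, with 153 against 108 and 107. Against the day 7 control the highest and lowest were Ndufa6 (2.16) and Ndufa12 (-0.12). Uqcr11 of complex III had 407 against 99.5 and 77.5, and Atp5g1 of ATP synthase had 111 against 27.8 and 27.1. These genes are short, with a median length of 1688 bases, and short genes as a class were higher in this comparison, as described at the end. With the median of each length class subtracted, 37 of the 76 were at least 2-fold higher and the median was 0.97. The 13 mitochondrially encoded proteins stood at 0.54 with 1 higher and 1 lower, 82 cytoplasmic ribosomal protein genes at 0.49 with 9 higher and 0 lower, and 35 proteasome genes at 0.02 with 0 in either direction, or -0.37 after scaling to the column sum. Of the 9 ribosomal protein genes, whose share of 82 lies below the 15% higher over all genes compared, 5 were higher against both controls. The median of the 82 was 0.10 after scaling to the column sum and 0.19 after the length medians were subtracted. For the mitochondrially encoded genes these were 0.14 and 0.07.

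Muscle microRNAs could be followed only through their precursor loci, since the libraries are not small RNA libraries. Of 9 loci, 2 were compared, Mir1a-1 with 4 reads and Mir133a-2 with 5 reads with Myod1 and 0 in both controls. The microRNAs miR-206 and miR-133b arise from neighbouring hairpins on chromosome 1, at chr1:20679010-20679082 for Mir206, and a long noncoding RNA gene of the same strand, Gm28653 (chr1:20669882-20684298), spans them. Gm28653 had 353 reads and an FPKM of 4.04 (3.64 to 4.49) with Myod1 and 0 reads in the other 4 libraries, while the hairpins themselves had 0 reads. The mature sequences from RefSeq (GRCm38.p6) show that the seeds differ, with bases 2 to 8 in capitals.
miR-206-3p: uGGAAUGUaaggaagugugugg
miR-133b-3p: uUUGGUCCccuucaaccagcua
Reads at Gm28653 say nothing about the level of the mature forms.

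H19, an imprinted noncoding RNA of embryonic tissues and muscle, was the highest of the imprinted and growth genes, with an FPKM of 1085 (1075 to 1096) with Myod1, 0.597 in the day 8 control, 0.340 in the day 7 control, 9.84 with Pparg and 0.220 with Setdb1 knockdown. Igf2, its imprinted neighbour, had 2 reads with Myod1 and 0 in both controls. The list as a whole had 2 of 8 compared higher, 3 lower and 3 neither, where all genes compared gave 15% and 8.11% (median 0.14, but -0.19 after scaling to the column sum). Igfbp4 had 25.6 against 74.7 and 82.3, and Plagl1 15.2 against 40.4 and 47.4. Among 11 signalling ligands and receptors compared, 3 were higher and 2 lower, where all genes compared gave 15% and 8.11% (median 0.05, -0.27 after scaling to the column sum). Fgfr1, an FGF receptor of myoblasts, had 6.99 against 0.0620 and 0.0303, and Tgfb3 had 22.6 against 5.41 and 6.84. Met, the receptor of hepatocyte growth factor, had 24.9 against 128 and 126.

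Some inhibitors of MyoD were also higher. Of 11 Id, Hes and Notch genes compared, 6 were higher and 0 lower, and 5 of the 6 were higher against both controls, beside 15% and 12.7% of all genes compared. Of the 11, 5 entered through the Myod1 library alone. The median was 1.28, but 0.85 against the day 7 control and 0.24 over the 15 genes with any reads in the pair. Id proteins bind E proteins and keep MyoD from DNA. Id1 had an FPKM of 14.9 against 0.792 and 1.03, and Id3 had 55.5 (52.8 to 58.3) against 2.15 and 2.44. Id3 was also above both controls with Pparg (34.7) and with Setdb1 knockdown (28.3). Id2 had 44.0 against 12.5 and 28.0, so its excess over the day 7 control was 0.63 on the log2 scale. The Notch ligand Dll1 had 2.58 against 0.0435 and 0.0283, and Jag2 5.89 against 0.729 and 0.532, and the Notch receptors Notch1 and Notch2 differed by less than 2-fold. Hes6, an antagonist of Hes1 that is listed with the myogenic factors, had 188 against 14.3 and 14.3.

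Most genes of cell division were lower. None of the 40 mitosis genes was higher, 37 were lower and 3 were neither (median -1.46), and 33 were lower against both controls, beside 8.11% and 4.74% of all genes compared. Mki67, which encodes the proliferation antigen Ki-67, had an FPKM of 2.21 (1.99 to 2.45) with Myod1, 33.5 (32.6 to 34.4) in the day 8 control, 12.6 (12 to 13.1) in the day 7 control, 11.9 with Pparg and 0.897 with Setdb1 knockdown. The controls thus differed in Mki67, and the Myod1 library lay below both. The condensin genes Smc2 and Smc4 had 0.917 against 11.7 and 5.99 and 0.696 against 12.3 and 6.42. Kif11, a spindle motor, had 2.18 against 16.2 and 13.1, and Top2a 9.81 against 62.6 and 42.1. Cdk1 (-0.87), Cenpa (-0.74) and Cdc20 (-0.81) were the 3 members in neither class. Of 38 genes of DNA replication and nucleotide synthesis, 22 were lower, 16 neither and none higher (median -1.06), with 19 lower against both controls. The helicase genes Mcm3, Mcm5 and Mcm6 had 43.7, 36.7 and 26.5 against 123, 102 and 83.0 in the day 8 control and 126, 98.5 and 98.1 in the day 7 control. Ccne1, cyclin E1, was at -0.14. The lower values did not reach 0, since Plk1 remained at 44.6 FPKM and Rrm2 at 70.1.

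Of 12 CDK inhibitors, D cyclins and pocket proteins compared, 2 were higher, 2 lower and 8 neither, where all genes compared gave 15% and 8.11% (median -0.38). Cdkn1a, the p21 inhibitor that accompanies myoblast cell cycle exit, had an FPKM of 425 (419 to 430) with Myod1, 119 in each control, 179 with Pparg and 262 with Setdb1 knockdown. Rb1, the retinoblastoma gene, had 8.19 against 2.37 and 2.75, while its relative Rbl1 had 3.28 against 11.5 and 9.20. Ccnd3, the D cyclin of differentiating muscle, had 71.6 against 36.4 and 50.1, a ratio of 0.96. Of 14 targets of p53 compared, 6 were higher and 0 lower, beside 15% and 8.11% of all genes compared (median 0.83, but 0.29 against the day 7 control), and the controls differed from each other by a median of 0.48. Btg2 had 32.9 against 1.54 and 2.88, and Ccng1 had 91.0 against 31.5 and 82.9, so the excess of Ccng1 held against the day 8 control alone.

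Of 21 genes of melanin synthesis and the melanosome, 8 were lower, 13 neither and 0 higher (median -0.92), and the 8 were lower against both controls. Of all genes compared 8.11% were lower, and 4.74% against both controls. Tyr, the rate-limiting enzyme of melanin synthesis, had an FPKM of 24.5 with Myod1, 76.2 in the day 8 control, 76.9 in the day 7 control, 30.6 with Pparg and 52.9 with Setdb1 knockdown. Dct had 292 against 1067 and 835, Pmel 1248 against 3014 and 2993, and Tyrp1 877 against 2172 and 2885. The melanosome transporters Oca2 (0.40) and Slc45a2 (-0.25) differed by less than 2-fold. Of 12 melanocyte and neural crest regulators compared, 5 were lower, 1 higher and 6 neither (median -0.74), with 4 lower against both controls. Besides Mitf, Tfap2a had 7.82 against 19 and 17.2, and Zeb2 1.56 against 4.56 and 4.83. Sox10, which activates Mitf in the neural crest, had 185 against 278 and 244 (-0.59). Erbb3, a receptor of the crest and glia, was the higher one, with 36.6 against 11.1 and 6.90. Pmel at 1248 FPKM stood in the same library as Acta1 at 14993.

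The extracellular matrix list had 9 of 17 genes lower and 1 higher against the day 8 control (median -1.07), and 5 lower against both controls, beside 8.11% and 4.74% of all genes compared. The median was -0.56 against the day 7 control. Mmp14, a membrane collagenase, had 14.6 against 58.4 and 41.7, and Lamc1 15.2 against 40.9 and 35.2, while the laminin gene Lama5 had 16.7 against 7.05 and 2.86. Of 21 heat shock and chaperone genes, 4 were higher, 2 lower and 15 neither, near the 15% and 8.11% of all genes compared (median -0.29). The 4 were small heat shock proteins of muscle: Hspb7 had 248 against 0.928 and 1.60, Hspb1 70.0 against 2.97 and 3.83, Hspb8 138 against 16.1 and 14.5, and Hspb2 93.0 against 18.6 and 16.3. Hsp90aa1 and Hsp90b1 were the lower pair, with 33.6 against 233 and 149 and 32.5 against 148 and 90.2. Among 17 splicing regulators, 2 were higher and 3 lower, where all genes compared gave 15% and 8.11% (median -0.20, and -0.69 against the day 7 control). Rbfox1, a splicing factor of muscle and neurons, had 2.51 against 0 reads in both controls, Rbfox2 had 42.4 against 11.7 and 8.55, and Ptbp1, which represses muscle exons, had 59.0 against 131 and 159.

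Of 28 chromatin regulators, 1 was higher, 5 lower and 22 neither, where all genes compared gave 15% and 8.11% (median -0.36). Hdac11, a deacetylase of muscle and brain, had 80.7 against 4.25 and 2.49. The Polycomb genes Ezh2 and Suz12, which keep muscle genes silent in myoblasts, had 5.88 against 17.9 and 20.1 and 4.90 against 16.1 and 15.1, while Eed was at -0.02. Setdb1 had 8.41 against 10.3 and 9.82 in the controls, and Smarca4, the remodelling ATPase, was at -0.22. In the ferritin and lysosome list, 2 of 22 were higher and 4 lower, and 1 and 2 against both controls, where 12.7% and 4.74% of all genes compared were called (median -0.61). Ftl1 had 922 against 2151 and 3135. Among 16 immediate early genes, 7 were higher and 2 lower, and 7 and 0 against both controls, beside the same shares of all genes. The median was 0.66, but 1.26 against the day 7 control and 0.11 with all 20 listed genes included. Fos had 9.06 against 2.03 and 2.01. Ier3, called lower against the day 8 control (23.7 against 83.9), had 22.3 in the day 7 control.

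Markers of other cell types were read as whole lists. Of 16 cardiac markers, 6 were compared, with 5 higher and 1 lower, beside 15% and 8.11% of all genes compared. The lower one was 2-fold lower against the day 8 control alone. The summed FPKM of the list was 2902 with Myod1 against 26.6 and 18.2. Of the 6, 5 entered through the Myod1 library alone, which favours a higher count, and 4 (Actc1, Tnnt2, Sln and Myh6) also stand in the skeletal muscle lists. Gata4, a cardiac transcription factor, had 3.21 (2.79 to 3.69) against 0 reads in both controls, and Nkx2-5, Tbx5, Tbx20, Hand2, Pln and Ryr2 had 0 reads with Myod1. Of 11 smooth muscle markers, 5 were compared, with 3 higher and 1 lower, beside 15% and 8.11% of all genes compared. Through the Myod1 library alone entered 2 of the 5. Acta2 had 267 (261 to 273) against 0 reads in both controls, Lmod1 57.2 against 0.403 and 0.258, and Smtn 90.4 against 8.93 and 11.0. Myocd, a coactivator of smooth muscle genes, had 0 reads and Cald1 had 3.48 against 13.3 and 11.6. Of 12 bone and cartilage markers, 2 were compared and went opposite ways. Spp1, osteopontin, had 188 against 5.13 and 3.12, and Sox9, the cartilage regulator, had 1.55 against 3.73 and 4.48 (-0.89 and -1.10). Of 14 adipocyte markers, 10 had 0 reads with Myod1 and 2 were compared, of which the lipase gene Pnpla2 was higher, with 65.0 against 27.8 and 22.9. Their summed FPKM was 66.3 against 28.6 and 23.7. Of 16 neuron markers, 9 had 0 reads and 2 were compared, with neither called, and the sum was 137 against 202 and 120. The 10 fibroblast and the 12 epithelial and endothelial markers had summed FPKM of 0.438 and 1.74 with Myod1. Of 12 immune markers 2 were compared, and Cd68 had 4.30 against 12.2 in the day 8 control and 4.0 in the day 7 control. The part of other cell types in the results above was not tested beyond these levels.

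Outside the lists, the 15 protein-coding genes with the highest ratios among those 2-fold higher against both controls ran from Hfe2 (8.00) to Dusp27 (6.04). Hfe2, hemojuvelin, a protein of muscle and liver in iron regulation, had an FPKM of 255 against 0 reads in both controls. Trim72, which repairs the muscle membrane, had 220 against 0 reads in both. Nmrk2, a kinase that makes NAD in muscle, had 226 against 0.0660 and 0.0323, and Fndc5, the irisin precursor, 187 against 0.111 and 0. Itgb1bp2, melusin, had 156 against 0 and 0.0332, Apobec2 81.9 against 0.192 and 0.225, and Asb2, a ubiquitin ligase adaptor of muscle, 260 against 1.95 and 1.42. Synpo2l, Fbxl22, C1qtnf3, Ablim3, Shisa2 and Smim5 ranged from 70.3 to 117 FPKM with Myod1 and were each under 0.6 in both controls. The 15 lowest ran from S100a6 (-2.78) to Gjc3 (-2.11). S100a6, a calcium-binding protein of proliferating cells, had 1.72 against 17.7 and 5.69, and Anxa2 had 32.1 against 149 and 77.1. The cohesin genes Smc3 and Smc1a had 1.81 against 12.4 and 7.19 and 2.81 against 16.9 and 10.5. G6pdx, the entry enzyme of the pentose phosphate pathway, had 23.3 against 104 and 102. The others were Arl11, Adgra2, Cip2a, Gm6793, Lrp1, Ddr2, Lpar5, Epha3 and Ahnak2.

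Long noncoding RNA genes were higher in 158 of 426 compared (37.1%) and lower in 18 (4.23%), together 41.3%. Of the 10471 protein-coding genes compared, 13.2% were higher and 8.01% lower, together 21.2%. The 2 classes were not matched for level in the controls. By ratio against both controls the highest were Gm36543, 2310043L19Rik, 5430431A17Rik, Gm36328 and Gm19866, and Gm36543 had an FPKM of 27.5 (234 reads) against 0 reads in the other 4 libraries. The lowest were Gm20618, Gm16104, Zfp469, Gm38399 and Gm45869, and Gm20618 had 0.787 against 7.40 and 7.48. Zfp469 is classed as noncoding in the deposited annotation, which also describes it as a zinc finger protein. Without a stated strand setting, reads of antisense genes such as Gm36328 and Gm16104 cannot be told from those of the overlapping gene.

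The ratios also followed gene length. Among protein-coding genes the median log2 ratio was 0.59 in 280 genes under 1 kb, 0.21 in 1618 genes of 2 to 3 kb, -0.05 in 2561 genes of 4 to 6 kb and -0.34 in 1804 genes of 8 kb and over. Against the day 7 control the ends were 0.61 and -0.29, and between the controls -0.01 and -0.07. As a description across 10471 genes that share these libraries, Spearman's rho between length and ratio was -0.28 against the day 8 control, -0.25 against the day 7 control and -0.07 between the controls. With the length medians subtracted, the medians were 5.02 for the thick filament, whose genes compared have a median length of 5338 bases, and 8.33 for the thin filament, with 2210 bases. Mitosis remained at -1.41 and DNA replication at -1.07. The part of RNA quality in the length trend was not tested.

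**Figure D5:**
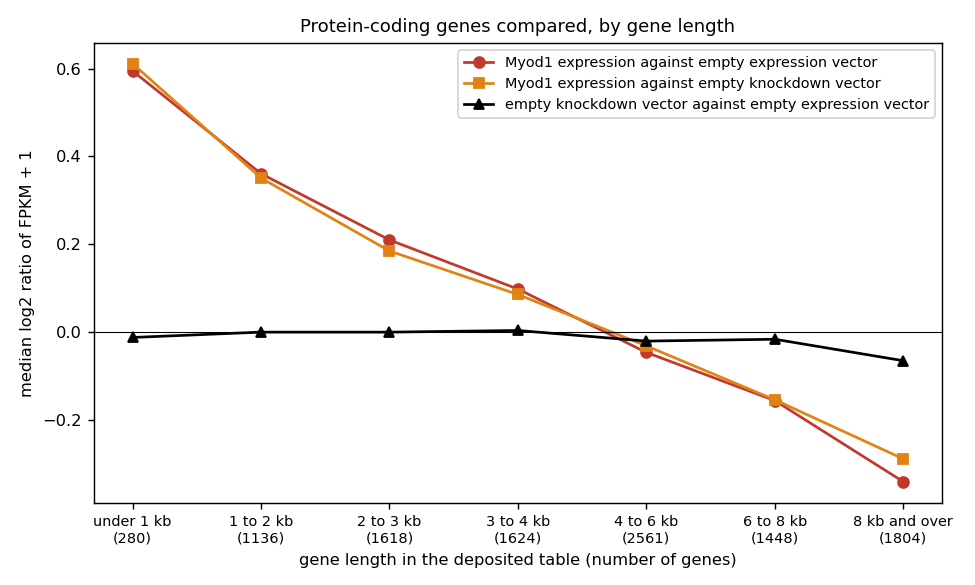
Median log2 ratio of protein-coding genes in 7 classes of gene length (x axis, number of genes in brackets) for the Myod1 library against each control and for the day 7 against the day 8 control. Both Myod1 lines fall from about 0.6 in the shortest class to -0.34 and -0.29 in the longest, and the line between the controls stays within 0.07 of 0.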

How the data were processed

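RNA from 5 B16F10 cultures was sequenced, 1 library per group. The authors deposited 1 table of FPKM values. HISAT2, featureCounts 1.5.0-p3, CASAVA and the build GRCm38 are named in the submitters' processing notes, without roles or settings, and strand and shared reads are not given in the sources used here. Of 54409 identifiers shared with GENCODE M21, 98.3% had the same position. In each library 100% of FPKM times gene length were whole multiples of 1 step (tolerance 0.001), which gave the reads per gene. The number the authors divided by was 0.859 times the reads of the Myod1 library, so the deposited FPKM were scaled between libraries. Ratios used a pseudocount of 1 and Python 3.11.15 with pandas 2.3.3, and the calling was tested on simulated data. With 1 library per group no test was made. The 33 gene lists (653 genes) and the genes compared were chosen with earlier results of these data known, and so support nothing independently. Genes named are the markers Myod1, Myog, Acta1 and Mitf, list members, and the 15 highest and 15 lowest protein-coding and 5 highest and 5 lowest long noncoding RNA genes outside the lists that changed 2-fold against both controls. Alternatives covered the pseudocount, filters, fold limit, scaling, control library, gene biotype and values under 3 reads. The trend with gene length was removed as an alternative chosen after seeing the data. Some genes that these rules name are not reported here.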

Additional observations from a re-analysis of the deposited data

Results flagged for a closer look

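Of the 471 genes at 1 FPKM or more with Myod1 and at most 3 reads in each control, 31 were also at 1 FPKM or more in the Pparg library and 36 in the Setdb1 knockdown library, and 58 were so in either. These libraries lie outside the comparison. Some of the values rest on few reads and do not exceed the controls: Snord58b had an FPKM of 1.64 (2 reads) with Setdb1 knockdown against 1.85 and 1.81 in the controls, and Gm21769 had 1.41 (3 reads) with Pparg against 1.65 and 1.62. Dusp27 had an FPKM of 66.8 with Myod1 and 2.35 with Pparg. Cox6a2 had 136 with Myod1, 1.53 with Pparg and 2.62 with Setdb1 knockdown. Hist2h3c2 had 2.37, 2.56 and 5.62 in the same order.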

How the results depend on the processing

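No paired analysis was possible because each group has 1 library. The count of higher genes (1798) stayed within 1.5 times under every alternative except a 4-fold limit (559). The count of lower genes (970) was 1555 with a pseudocount of 0.1, 1591 with values under 3 reads set to 3 and no pseudocount, 1878 after scaling to the column sum, 567 against both controls and 49 at 4-fold. The count of 266 between the controls was 689 with a pseudocount of 0.1, 690 with values under 3 reads set to 3, 146 among protein-coding genes and 26 at 4-fold. The 471 genes on with Myod1, which include 40 with at most 3 reads there, became 99 at 10 FPKM or more, 271 with 0 reads in both controls and 221 among protein-coding genes. The log2 ratio of Myod1 (8.03) was 11.35 with a pseudocount of 0.1 and 7.64 after scaling to the column sum. Removing the length trend left 1274 higher and 798 lower of 10471 protein-coding genes. Of 314 named genes called 2-fold, 285 were still called against the day 7 control, 27 were under 2-fold and 2 changed sign, Ier3 (0.088) and Cd68 (0.085). For the 15 list medians of at least 1 in size, 178 alternatives were run and the sign did not change, but 36 moved by more than the spread between the controls (0.38) and 11 fell under 1 in size. With a pseudocount of 0.1 the thick filament moved from 4.95 to 7.55 and excitation-contraction coupling from 5.49 to 8.15. Without the filter on low values the smooth muscle list moved from 3.20 to 0.30, bone and cartilage from 2.03 to 0.02, the extracellular matrix from -1.07 to -0.31 and Id, Hes and Notch genes from 1.28 to 0.24. Depth limits genes with few reads: in the controls a count of 0 does not show absence, and the floor was set at 3 reads.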
